A study of Rattus norvegicus with 6 samples.

Results

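The miR-1 and miR-206 muscle family was followed in rat heart small RNA. It comprises 3 mature miRNAs, rno-miR-1b, rno-miR-1-3p and rno-miR-206-3p, which were picked by their exact IDs in the deposited count table, where each has 1 row. They are 3 of the 1191 mature IDs listed, of which 699 carry miRBase names and 492 are entries predicted by the authors. Libraries were made from 3 normal hearts (treatment label control) and from 3 hearts whose left anterior descending coronary artery was tied for 0.5 h and then reopened for 0.5 h. All 6 animals are labelled WT, and the labels name no strain, age or sex, no sham operation and no region of the heart. The labels number the hearts and say nothing more of their origin. The tests set the difference between the groups against the variation among these 6 samples, which may be partly technical. Hearts of the second group are called reperfused, values are listed in the order of replicates 1 to 3, and names are otherwise written without the species prefix.

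MicroRNAs guide Argonaute proteins to messenger RNAs, mainly by pairing of their seed, bases 2 to 8 from the 5′ end. miR-1 is made in heart and skeletal muscle cells from genes that also encode miR-133a, and both are among the best known muscle miRNAs. miR-206 shares the seed of miR-1, is encoded beside miR-133b, and is known from skeletal muscle rather than heart.

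The 3 listed mature sequences are shown because the counts that follow turn on a few bases outside the seed. They are written 5′ to 3′ with the seed in capitals, and RefSeq's rat sequences (GRCr8) are identical to the listed ones for all 3.
miR-1b: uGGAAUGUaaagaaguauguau
miR-1-3p: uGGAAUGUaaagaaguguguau
miR-206-3p: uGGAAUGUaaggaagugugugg
All 3 have 22 bases and the same seed. Counted from 1 at the 5′ end, and with the base of the sequence compared against written first, miR-1b differs from miR-1-3p by G17A, so sequences that stop before base 17 are the same for both. miR-206-3p matches miR-1b at 18 bases and differs from it by A11G, A17G, A21G and U22G.

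In RefSeq's GRCr8 annotation the miR-1-3p hairpin lies at chr18:2160327-2160413 on the minus strand, inside the protein-coding gene Mib1. The hairpin that holds miR-133a-3p (Mir133a1) is on the same strand, with 2368 bases between them. The miR-1b hairpin is at chr3:187864685-187864769 on the plus strand, and no gene in the RefSeq gene table spans it. The miR-206 hairpin is at chr9:30590697-30590780 on the plus strand inside a long non-coding RNA gene that also holds Mir133b, 3801 bases further on.

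Counts per library, summed over all isoforms, ran from 6963312 to 8429988 in normal hearts and from 1376947 to 2814802 after ischemia-reperfusion. Every ischemia-reperfusion library was shallower than every normal one, so sequencing depth and group cannot be told apart. All 4 heart muscle markers on the list used to check the tissue (miR-208a-3p, miR-208b-3p, miR-499-5p and miR-133a-3p) had counts in every library. In CPM of the unscaled library, that is, counts scaled to a common total, together they ranged from 32538 to 36266 in normal and from 27503 to 29634 in reperfused hearts. How many entries separate the groups at this scaling was not counted. Singly, with total counts in edgeR, their log2 fold changes were -0.17 (miR-208a-3p), -0.28 (miR-208b-3p), -0.46 (miR-499-5p) and -0.052 (miR-133a-3p). None of the 4 had an adjusted p under 0.05 there. In whole tissue, fewer cells of a type and less RNA per cell cannot be told apart. The 3 red cell markers (miR-451-5p, miR-144-3p and miR-486) summed to 2383 to 2635 CPM in normal and 1638 to 2032 CPM in reperfused hearts, but did not move one way. In edgeR's test across all entries miR-486 fell by 0.78 on the log2 scale (adjusted p = 0.0103), while the log2 fold change of miR-451-5p was 1.22 ± 0.67 (SE; adjusted p = 0.195). The summed endothelial, smooth muscle and fibroblast, and leukocyte markers overlapped between the groups. The liver marker miR-122-5p was at 27.3 to 75.3 CPM of the unscaled library in normal and 81.4 to 972 CPM in reperfused hearts. The part of these markers in the results on the miR-1 family was not tested.

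Normal hearts and hearts early in reperfusion did not differ past the threshold in any of the 3 miRNAs. All 3 had negative log2 fold changes, but the median over the miRBase-named entries was also negative, at -0.40. The sign for miR-1b turned positive under some scalings. miR-1b, the most abundant, had widely overlapping groups, miR-1-3p was set apart by a single normal heart, and miR-206-3p came closest to the threshold. Levels from here on are CPM of all isoforms, with library sizes scaled by TMM factors, which assume that most entries do not change. edgeR's quasi-likelihood test with Benjamini-Hochberg adjustment over all entries called 0 of the 3, against 42.7% of the 524 entries tested and 14.8% of the 305 miRBase-named ones. At an unadjusted p under 0.05, edgeR counted 1 of the 3, limma-voom 1 and DESeq2 2, and after adjustment neither of the latter tools called any. At that unadjusted threshold edgeR also counted 256 of the 524 entries and 77 of the 305 miRBase-named ones.

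miR-1b was at 248987, 212225 and 179424 CPM in the normal hearts, and at 149182, 188177 and 245639 CPM in the reperfused hearts. The groups overlapped widely: the highest reperfused heart was close to the highest normal one. The means were 213545 ± 34800 and 194333 ± 48522 CPM (SD, n = 3 each), and the log2 fold change was -0.14 ± 0.22 (SE; 95% interval -0.66 to 0.39; edgeR adjusted p = 0.627). The sign turned positive with total counts (0.094), with factors taken from miRBase-named entries (0.19) and without ischemia-reperfusion replicate 1 (0.099).

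miR-1-3p, 1 base away from miR-1b, was at 157628, 33627 and 29308 CPM in the normal hearts. After ischemia-reperfusion it was at 21233, 29374 and 27100 CPM in replicates 1 to 3. Normal replicate 1 stood far above the other 5 hearts, which lay within a narrow range where the groups overlapped. The log2 fold change was -1.51 ± 0.65 (SE; 95% interval -3.06 to 0.052; edgeR adjusted p = 0.112) with that heart and -0.36 ± 0.18 (SE; adjusted p = 0.152) without it. The call was gained without normal replicate 3 (log2 fold change -1.96; adjusted p = 0.0440) and with upper-quartile factors (-2.03; 0.0273). Among 134 entries with a normal mean of at least 100 CPM of the library total, miR-1-3p had the highest log2 ratio of normal replicate 1 to the mean of the other normal hearts, at 2.30, ahead of 1.34 for the next entry. The same ratio was 0.32 for miR-1b and 0.46 for miR-206-3p, with a median of -0.14 over the 134.

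Because miR-1-3p and miR-1b differ at 1 base, their counts were also added and the table refitted with the sum in place of both. The sum was at 409767, 241933 and 211308 CPM in the normal hearts and at 168954, 217986 and 273475 CPM in the reperfused hearts. Here, too, normal replicate 1 was the highest and the remaining hearts of both groups were interleaved. The log2 fold change was -0.39 ± 0.30 (SE; 95% interval -1.09 to 0.32; edgeR adjusted p = 0.330), and -0.14 without normal replicate 1 (adjusted p = 0.633). With upper-quartile factors the sum was called lower (-0.84; adjusted p = 0.0471). As a share of all counts the sum held 37.1%, 23.4% and 18.7% in the normal hearts, and 19.1%, 24.2% and 28.1% in the reperfused hearts (exact permutation test, two-sided p = 0.9; adjusted p = 1.0 over 9 measures). The 95% Wilson interval of each share had a half-width of 0.0658 percentage points or less; this and all such intervals cover counting error only.

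Counts listed under miR-206-3p were far fewer, at 708, 549 and 460 CPM in the normal hearts and 311, 363 and 438 CPM in the reperfused hearts. On this TMM-scaled level the groups did not overlap, a pattern in the lower direction that 38.7% of the 305 miRBase-named entries tested also showed. Without scaling factors they did: as a percent of all counts miR-206-3p was at 0.0645, 0.0522 and 0.0413 in normal and 0.0349, 0.0404 and 0.0451 in reperfused hearts. The authors' normalized values overlapped as well, at 617, 505 and 400 against 331, 389 and 432. The means were 572 ± 126 and 371 ± 64.1 CPM (SD, n = 3 each), and the log2 fold change was -0.63 ± 0.22 (SE; 95% interval -1.15 to -0.11; unadjusted p = 0.0250; edgeR adjusted p = 0.0560). The change shrank to -0.29 with factors from miRBase-named entries (adjusted p = 0.396), and the call was gained with upper-quartile factors (-1.12; 0.00940), with no filter on low counts (-0.70; 0.0326) and without normal replicate 3 (-0.83; 0.0397). In every library the order of the levels was miR-1b, then miR-1-3p, then miR-206-3p.

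**Figure D1:**
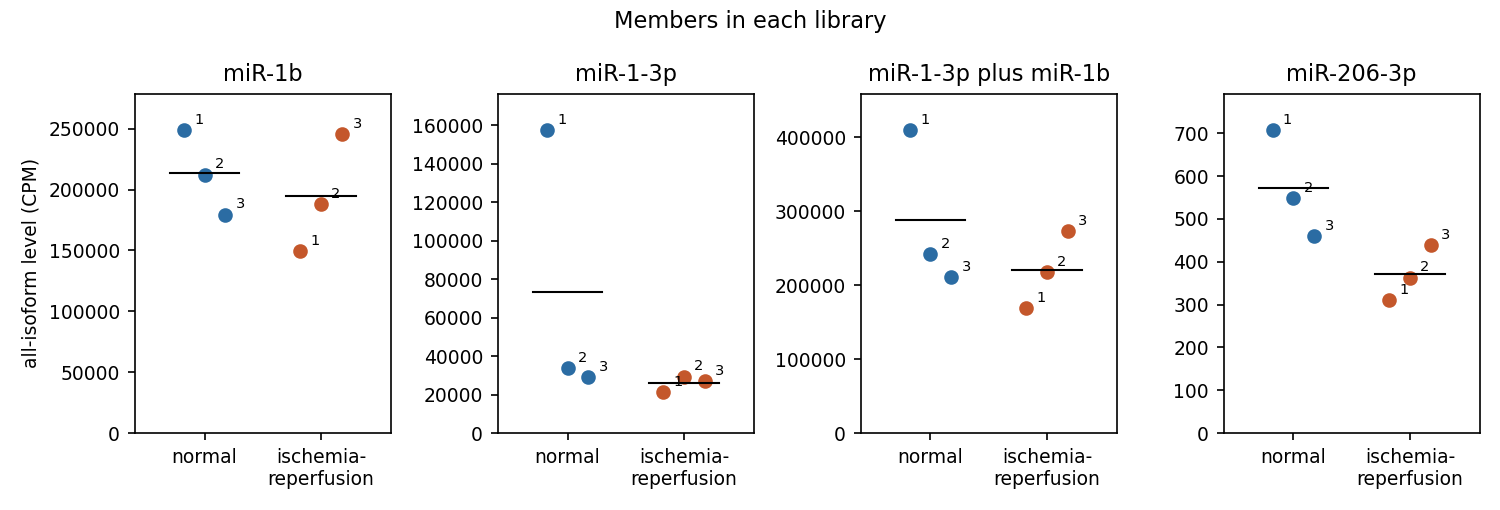
All-isoform levels (CPM, TMM-scaled, linear axes from 0) of miR-1b, miR-1-3p, their sum and miR-206-3p in each of the 6 libraries; points are libraries with their replicate numbers and black lines are group means (n = 3). Normal replicate 1 stands apart for miR-1-3p at 157628 CPM, the groups overlap for miR-1b and the sum, and for miR-206-3p every reperfused heart lies below every normal one at this scaling, though not as a percent of all counts.

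The table also gives, for each miRNA, counts of the exact listed sequence and of its most abundant sequence. The listed miR-1-3p sequence was itself the most abundant, with 515271, 114065 and 93911 counts in the normal hearts and 13194, 32021 and 33196 in the reperfused hearts. It made up 51.5% of its isoforms in normal replicate 1 and 40.2% to 44.8% in the other 5 hearts (exact permutation p = 0.4; adjusted p = 0.72). For miR-1b the most abundant sequence was a form of 20 bases that stops before the final 2.
miR-1b, most abundant: tggaatgtaaagaagtatgt
That 20-base form held 30.3%, 38.7% and 45.6% of the miR-1b isoforms in the normal hearts, and 39.0%, 34.5% and 33.5% in the reperfused hearts (exact permutation p = 0.7; adjusted p = 0.9). The full 22-base miR-1b held 35.4%, 28.3% and 23.4% in normal and 27.9%, 33.2% and 33.5% in the reperfused hearts (exact permutation p = 0.7; adjusted p = 0.9). Set against each other, there were 117, 73.3 and 51.4 counts of the full miR-1b per 100 of the 20-base form in normal hearts, and 71.7, 96.3 and 99.9 after ischemia-reperfusion. Relative to the shorter form, normal replicate 1 had the most full-length miR-1b and normal replicate 3 the least, with the reperfused hearts between them.

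Within the sum of both miRNAs, miR-1-3p took 38.8%, 13.7% and 14.04% in the normal hearts. It took 12.5%, 13.5% and 9.94% in the reperfused hearts. The groups did not overlap, but normal replicates 2 and 3 were within 2 percentage points of reperfused replicates 1 and 2. The difference in means, -10.2 percentage points, was -1.89 without normal replicate 1 (exact permutation p = 0.1 with all hearts, the smallest that 3 against 3 allows; adjusted p = 0.72). Among full 22-base sequences only, miR-1-3p took 47.9% in normal replicate 1, 19.5% and 22.8% in normal replicates 2 and 3, and 12.2% to 17.4% after ischemia-reperfusion. How the authors assigned sequences too short to reach base 17 is stated in none of the sources used. Such sequences may stand under either miRNA, or under both and so be counted again in the sum.

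**Figure D2:**
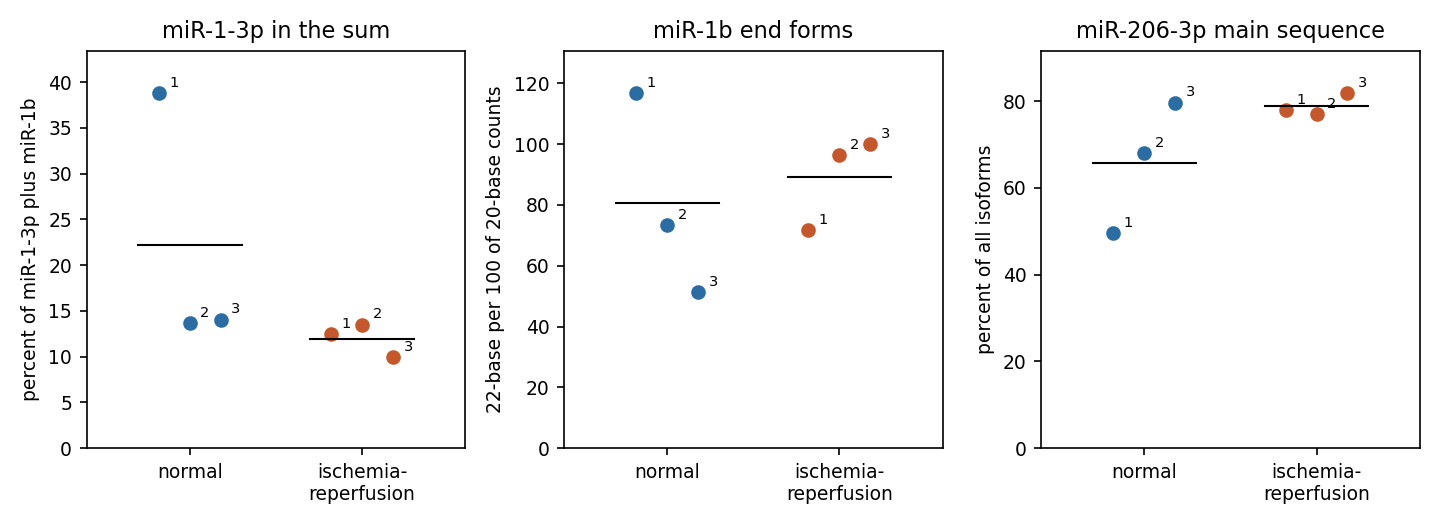
Composition of the counts in each library: miR-1-3p as a percent of miR-1-3p plus miR-1b (left), counts of the full 22-base miR-1b per 100 of its 20-base form (middle), and the most abundant miR-206-3p sequence as a percent of its isoforms (right). Points are libraries with replicate numbers and lines are group means (n = 3); normal replicate 1 is the extreme in all 3 panels, at 38.8%, 117 and 49.5%.

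For miR-206-3p the listed sequence was nearly missing. It had 2 counts in normal replicate 1, 2 in reperfused replicate 2, and none listed in the other 4 libraries, although 480 to 4494 counts per library were assigned to miR-206-3p. The smallest count in the table is 2, so fewer counts than that would not be listed. Over all libraries the exact sequence made up 0.0268% of miR-206-3p counts, against a median of 18.04% over 184 miRBase-named entries with at least 100 counts on average. It ranked 5 from the lowest, and 13 of the 184 were under 1%. The most abundant sequence assigned to miR-206-3p is printed under that of miR-1b, with the differing base in capitals.
miR-1b, most abundant: tggaatgtaaagaagtatgt
miR-206-3p, most abundant: tggaatgtaaGgaagtatgt
It differs from the miR-1b sequence of the same length by A11G, and from the first 20 bases of the listed miR-206-3p by G17A, so it is 1 base from either. It is found in none of the 419 rat hairpins in the RefSeq table, while the listed miR-206-3p is found in 1. For scale, only 121 of the 184 entries had a most abundant sequence that lies in one of these hairpins.

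That sequence had 2226, 2935 and 2772 counts in the normal hearts and 374, 680 and 1038 in the reperfused hearts. Per 1000 counts of the 20-base miR-1b it stood at 4.64, 4.56 and 4.48 in normal hearts, and at 4.16, 4.31 and 4.36 after ischemia-reperfusion. The ratio thus varied little across libraries whose miR-1b counts differed severalfold, and it was lower in all 3 reperfused hearts than in any normal one. The group means were 4.56 ± 0.082 and 4.28 ± 0.10 (SD, n = 3 each), a difference of -0.28. Counting error alone gave a single library's ratio a 95% Wilson half-width of up to 0.443. In all isoforms the gap was wider: per 1000 counts of all miR-1b isoforms, miR-206-3p stood at 2.84, 2.59 and 2.56 in normal and at 2.08, 1.93 and 1.78 in reperfused hearts. Here the group means were 2.66 ± 0.15 and 1.93 ± 0.15 (SD, n = 3 each), again with no overlap. Whether isoforms with fewer than 2 counts were left out more often in the shallower reperfused libraries was not tested. Both ratios were computed after the counts had been seen and were not tested. How many other entries separate the groups when set against miR-1b was not counted. For scale, the log2 fold change of miR-1b was -0.14, above the median of -0.40 over the miRBase-named entries. Over the 6 libraries the SD of the ratio of most abundant sequences was 0.057 on the log2 scale, the second smallest among 169 entries set against miR-1b in the same way, after let-7c-5p at 0.034, whose sequence is 10 edits away. The median SD of the 169 was 0.32.

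The sequence made up 49.5%, 68.1% and 79.6% of miR-206-3p counts in the normal hearts and 77.9%, 77.0% and 81.8% in the reperfused hearts (exact permutation p = 0.3; adjusted p = 0.72). Unscaled counts outside it numbered 2268, 1378 and 709 in normal and 106, 203 and 231 in reperfused libraries. Since every reperfused library was shallower than every normal one, these counts do not compare levels between the groups. In counts of the most abundant sequence alone, the log2 fold change of miR-206-3p was -0.25 (edgeR adjusted p = 0.393), against -0.63 in all isoforms. The exact sequence was too rare to be fitted. Per 1000 counts of miR-1-3p and miR-1b together, all miR-206-3p isoforms stood at 1.74, 2.23 and 2.20 in normal and 1.82, 1.67 and 1.61 in reperfused hearts (exact permutation p = 0.2; adjusted p = 0.72). From which gene these sequences were transcribed was not tested.

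The other arms of these genes, miR-1-5p and miR-206-5p, had no count in any library, nor did miR-133b-5p from the gene next to miR-206. miR-133b-3p, the other product of that locus and also known from skeletal muscle, showed a like feature. Of the 184 entries, miR-206-3p and miR-133b-3p were the 2 whose most abundant sequence is 1 substitution from that of an entry with at least 10 times their counts. These counts are of the most abundant sequences, summed over all libraries. For miR-133b-3p the difference from the miR-133a-3p sequence is U22C. It stood at 94.0, 87.0 and 91.1 per 1000 counts of the latter in normal and 98.8, 102 and 95.9 in reperfused hearts. In reperfused replicate 2, at 102, the miR-133a-3p sequence thus had slightly less than 10 times its counts. The groups did not overlap in this ratio, which was not tested. It was higher in reperfused hearts, whereas that of miR-206-3p to miR-1b was lower. The listed miR-133b-3p sequence, unlike that of miR-206-3p, was present in every library, at 3.24% to 4.68% of its isoforms.

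Beyond the 3 family members, 3 entries predicted by the authors carry the same bases 2 to 8 in their listed sequences. Their most abundant sequences are shown since they, too, lie close to the 20-base miR-1b, with substituted bases in capitals.
predicted entry with 19 listed bases: tggaatgtaagaagtatgt
predicted entry with 20 listed bases and 1 substitution: tggaatgtaaagaagAatgt
predicted entry with 20 listed bases and 2 substitutions: GggaatgtaaagaagtatgC
The first is 1 edit from miR-1b, a missing base, the second differs by U16A, and the third by U1G and U20C. None is found in a RefSeq hairpin of the table, and their listed sequences had 0 to 3 counts per library. Per 1000 counts of the 20-base miR-1b they stood at 0.501 to 0.721, 0.323 to 0.457 and 0.677 to 1.26 over the 6 libraries. On the log2 scale the SD of this ratio was 0.18, 0.17 and 0.36. These ranked 28, 21 and 101 from the smallest among the 169 entries set against miR-1b. In this ratio the groups overlapped for each of the 3. On the TMM-scaled level they did not for the second entry, at 63.6, 48.5 and 43.9 CPM in normal and 31.1, 32.1 and 43.5 CPM in reperfused hearts. That pattern in the lower direction was shown by 38.7% of the miRBase-named entries tested.

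None of these predicted entries passed edgeR's test, with log2 fold changes of -0.33 ± 0.28, -0.54 ± 0.25 and -0.36 ± 0.26 (SE; adjusted p = 0.380, 0.131 and 0.302), and 0 had an unadjusted p under 0.05. Among the 219 predicted entries tested, 172 were higher after ischemia-reperfusion and the median log2 fold change was 4.55. The log2 fold changes of these 3 lay between those of miR-1b and miR-206-3p.

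**Figure D3:**
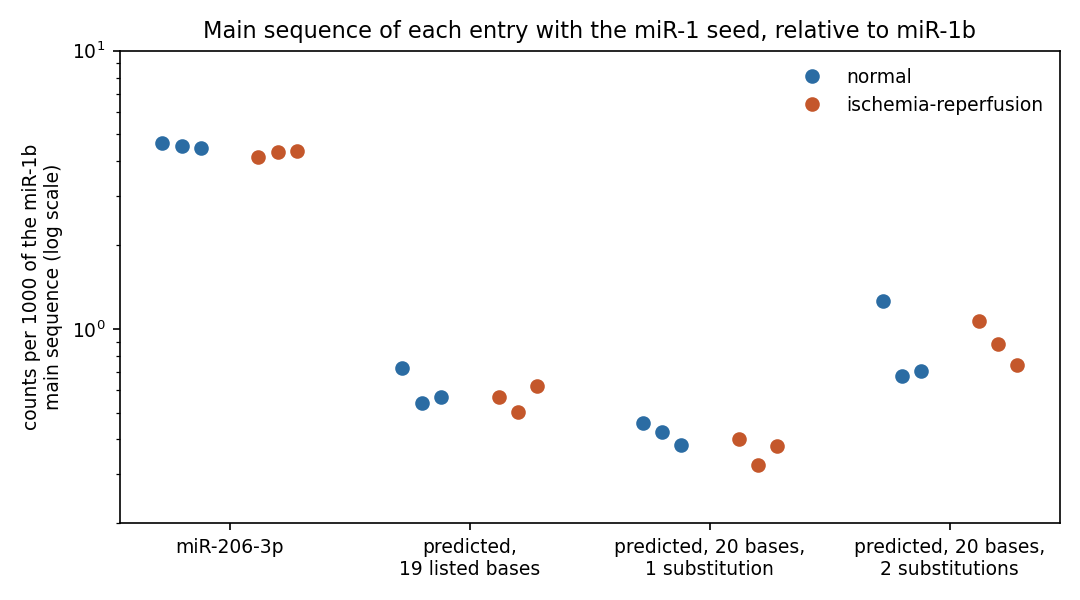
Counts of the most abundant sequence of miR-206-3p and of the 3 predicted entries with the same seed, per 1000 counts of the most abundant miR-1b sequence (log axis), in each library (points; 3 normal, 3 ischemia-reperfusion). miR-206-3p lies between 4.16 and 4.64 in all 6 libraries and the predicted entries between 0.323 and 1.26.

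Of the 12 other muscle miRNAs on the list, 8 could be tested, 3 had no counts and miR-208b-5p, the minor arm of a miRNA in a myosin gene, had at most 4 per library. Of the 8, 0 rose, 2 fell and 6 did not pass, with a median log2 fold change of -0.40, the same as the median of -0.40 over the 305 miRBase-named entries. For reference, 13.8% of those entries were called lower. That background moves with the scaling: over all 524 entries tested, 175 were called higher and 49 lower as reported, against 182 and 20 when total counts were used, 186 and 17 with factors from miRBase-named entries, and 172 and 162 under upper-quartile scaling. miR-133a-3p, encoded beside miR-1-3p, was at 20781, 14050 and 15006 CPM in the normal hearts and 11910, 13281 and 15576 CPM in the reperfused hearts. It was highest in normal replicate 1, as miR-1-3p was, but its lead over the other hearts was much smaller (log2 fold change -0.29 ± 0.20, SE; edgeR adjusted p = 0.279).

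miR-133a-5p, the other arm, was at 557, 579 and 540 CPM in normal and 277, 379 and 416 CPM in the reperfused hearts. The groups did not overlap, a pattern in the lower direction that 38.7% of the 305 miRBase-named entries tested also showed. miR-133a-5p fell by 0.65 on the log2 scale (edgeR adjusted p = 0.0278). miR-499-5p, encoded in a myosin gene, also fell, by 0.70 (adjusted p = 0.0307). Both calls were lost with factors from miRBase-named entries (adjusted p = 0.184 and 0.225). Both were also lost without normal replicate 2 (0.0791 and 0.0699), normal replicate 3 (0.0550 and 0.0634), ischemia-reperfusion replicate 1 (0.0890 and 0.0875) or 2 (0.0881 and 0.112), and that of miR-499-5p without ischemia-reperfusion replicate 3 (0.0756). miR-133b-3p was at 1821, 1077 and 1219 CPM in normal and 1085, 1209 and 1373 CPM in reperfused hearts, with overlapping groups (-0.17; adjusted p = 0.566).

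Across the 6 libraries, the entries most like each family member were ranked by Pearson's r of log2 CPM among 122 other miRBase-named entries with at least 100 CPM on average. For miR-1-3p these were miR-133a-3p (r = 0.91), miR-133b-3p (0.88) and miR-16-5p (0.88). For miR-206-3p they were miR-28-3p (0.96), miR-30c-5p (0.95) and miR-16-5p (0.94), and for miR-1b they were miR-7a-5p (0.98), miR-20a-5p (0.97) and let-7e-5p (0.94). Within the family, r was 0.78 between miR-1b and miR-206-3p, 0.84 between miR-1-3p and miR-206-3p and 0.63 between miR-1b and miR-1-3p. All points share the libraries' depth and scaling, and for miR-1-3p normal replicate 1 dominates, so these values only describe the 6 libraries.

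The authors' deposited table lists the 3 miRNAs among 589 entries, with a fold of ischemia-reperfusion over normal of 1.06 for miR-1b (p = 0.713), 0.417 for miR-1-3p (p = 0.362) and 0.762 for miR-206-3p (p = 0.149). The false discovery rates in the authors' deposited table were 0.851, 0.560 and 0.331, so none of the 3 passed 0.05 there either.

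**Figure D4:**
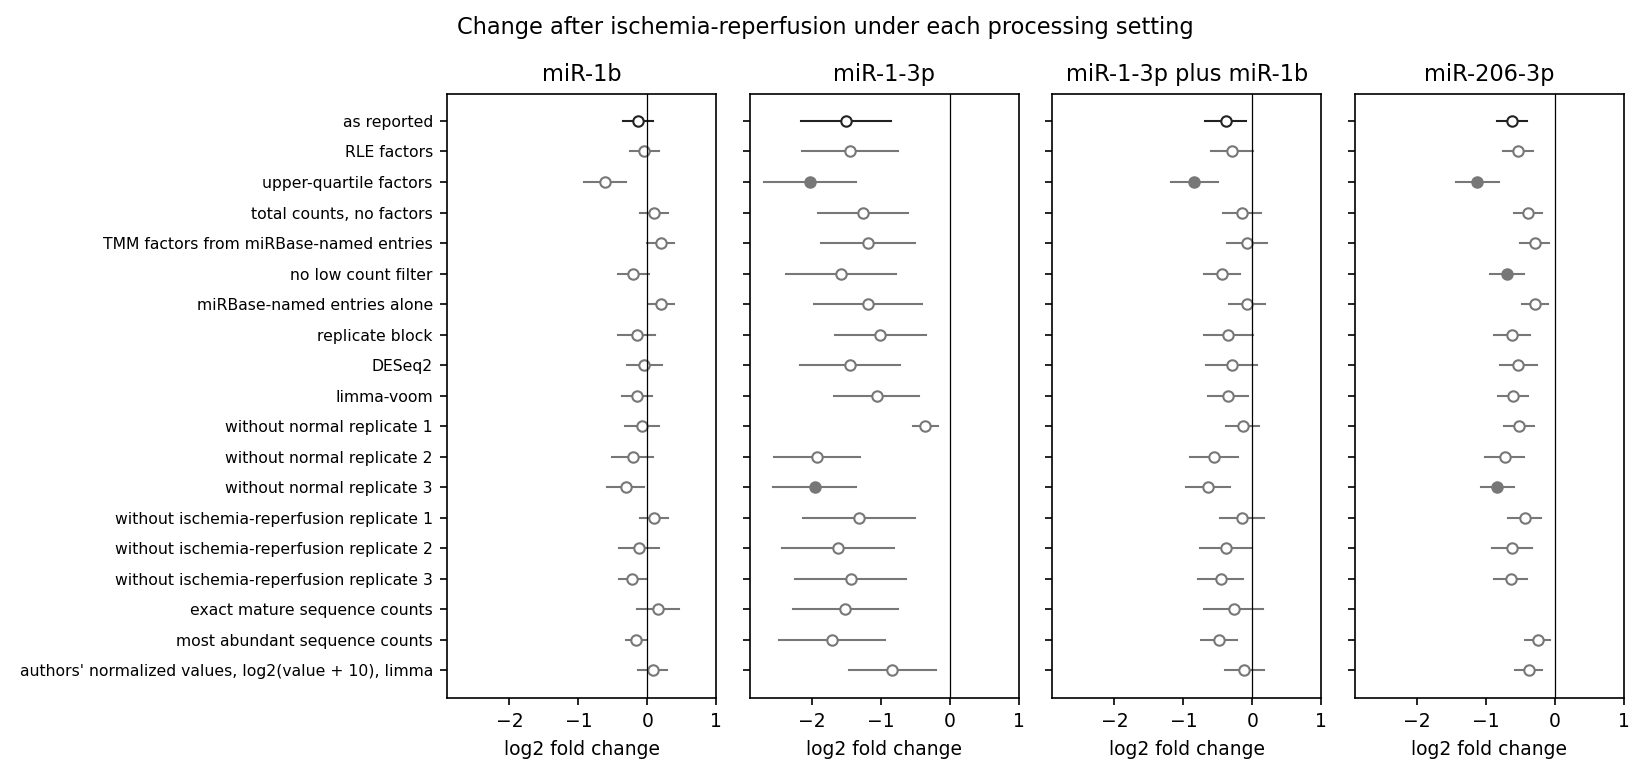
Log2 fold change (ischemia-reperfusion over normal) of miR-1b, miR-1-3p, their sum and miR-206-3p as reported and under each processing alternative; bars are ± 1 SE and filled points have an adjusted p under 0.05. miR-1-3p moves from -1.51 to -0.36 without normal replicate 1, miR-1b lies on either side of 0, and filled points appear under upper-quartile factors (3 panels), without the low count filter (miR-206-3p) and without normal replicate 3 (miR-1-3p and miR-206-3p).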

How the data were processed

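Small RNA libraries from 6 rat hearts were made, per the labels' protocols, by Trizol extraction, adaptor ligation, PCR and size selection, and sequenced on an Illumina NextSeq. Novoalign 2.07.11 is named in the submitters' processing notes; what it was used for, the build, the miRBase version and the rule that assigned isoforms are not stated there. The deposited values are raw tag counts, per the file headers, with a set of columns for all isoforms of a miRNA, another for its most abundant sequence and another for its exact listed sequence; blank cells were read as 0. The authors' normalized values are whole numbers, treated as a score. A further deposited table by the authors holds mean values per group (a score), their ratio as a fold, p-values and false discovery rates; its 18 columns of per-sample values were not used.

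All-isoform counts were tested in R 4.3.3 with edgeR 4.0.16, on 1 row per mature ID (the row with the highest total): filterByExpr at 10 counts or more, TMM scaling and glmQLFTest after a robust glmQLFit, adjusted by Benjamini-Hochberg at 0.05 over all 524 entries tested. SE is the log2 fold change over the root of the F statistic, and 95% intervals use the test's t quantile. Shares within a library were compared with two-sided exact permutation tests, adjusted over 9 measures. With 3 against 3 hearts their p cannot fall below 0.1, so none could pass 0.05. The exact and the most abundant share of miR-1-3p hold the same values and stand among the 9 as separate measures. The test script was first checked on simulated counts. Alternatives used DESeq2 1.42.0, limma 3.58.1, other scaling factors, filters, count types and left-out libraries. miRNAs named were the 3 members, a fixed list of muscle miRNAs, entries sharing the seed, and the 3 entries most like each member; the members, lists and tests were chosen with earlier results of these data known. Ratios of single sequences to miR-1b or miR-133a-3p, and let-7c-5p as their comparison, were added after the values were seen.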

Additional observations from a re-analysis of the deposited data

How the results depend on the processing

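miR-1b passed the test under no alternative, and its log2 fold change turned positive with total counts (0.094), factors from miRBase-named entries (0.19), miRBase-named entries alone (0.19), exact counts (0.16) and the authors' normalized values (0.081); leaving out single hearts gave -0.31 to 0.099. With upper-quartile factors miR-1-3p (-2.03), miR-206-3p (-1.12) and miR-1-3p plus miR-1b (-0.84) passed as lower, and miR-206-3p also with no low count filter (-0.70). Leaving out single hearts gave -1.96 to -0.36 for miR-1-3p, -0.83 to -0.44 for miR-206-3p and -0.64 to -0.14 for the sum, and miR-1-3p and miR-206-3p passed without normal replicate 3. The median log2 fold change over all entries, -0.17 as reported, was -0.67 with upper-quartile factors, 0.072 with total counts and 0.18 when factors came from miRBase-named entries, so member values shift with it. miR-206-3p had too few exact counts to be fitted.

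The number of entries called, 224, became 8 with miRBase-named entries alone (305 tested), 38 in exact counts (229 tested) and 118 in most abundant sequence counts (387 tested). Lower calls alone, 49 as reported, became 162 with upper-quartile factors, 20 with total counts, 17 with factors from miRBase-named entries, 20 with a replicate block and 13 to 75 with single hearts left out. The 2 other muscle miRNAs called became 5 with upper-quartile factors, 1 in most abundant sequence counts, and 0 with total counts, factors from miRBase-named entries, miRBase-named entries alone, exact counts or the authors' normalized values; single hearts left out gave 0 to 4. The cause was not tested.

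The difference (ischemia-reperfusion minus normal) in miR-206-3p per 1000 counts of miR-1-3p plus miR-1b, -0.36, was 0.0030 in exact and 0.35 in most abundant sequence counts. Leaving out single hearts gave -6.43 to 2.74 percentage points for the share of the sum in all counts, -0.34 to 5.64 for the exact share of miR-1b, -6.47 to 1.15 for its 20-base share and -0.015 to 0.098 for the exact share of miR-206-3p.

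The labels state no pairing of hearts by replicate number. Same-numbered deviations from the group means correlated at -0.25, 0.0057 and -0.20, and differently numbered ones at -0.13 to 0.26. With so few hearts these values cannot settle whether any were paired. With a replicate block the log2 fold changes were -0.15 for miR-1b, -1.01 for miR-1-3p, -0.62 for miR-206-3p and -0.35 for the sum, none passing; 152 entries and 0 of the other muscle miRNAs were called.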
